A study of Mus musculus with 2 samples.

Results

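The genes examined here encode 41 chromatin remodelling proteins: the SWI/SNF ATPases and subunits, the ISWI and CHD ATPases, Ino80, Ep400 and related SNF2-type enzymes. They were chosen by symbol, and every probe set whose platform annotation names 1 gene only, and that gene is among them, was used, 109 probe sets in all. The array names 18193 genes. Messenger RNA was measured on 2 Affymetrix 3' expression arrays of E14 cells, an established line of mouse embryonic stem cells. One array, called the knockdown array here, held cells infected with a lentivirus that carried a short hairpin RNA (shRNA) directed at Mll2. The control array held cells given a lentivirus with a control shRNA. The protocol gives 24 h of infection and 5 days of puromycin selection for the knockdown cells, and does not spell these times out for the control. The labels name no clone, hairpin sequence or second hairpin. Each group has 1 array, so no difference below was tested against replicates and none carries a p-value.

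Chromatin remodellers use the energy of ATP to slide, eject or exchange nucleosomes. SWI/SNF complexes, called BAF in mammals, are built from 1 ATPase and interchangeable subunits. Embryonic stem cells are known for a BAF form with Smarca4, Arid1a, Smarcc1 and Actl6a, whereas neurons exchange some subunits for Actl6b, Dpf1 and Dpf3. ISWI enzymes space nucleosomes. CHD enzymes include Chd4, the motor of the NuRD repressor complex, and Chd1, which is associated with open chromatin in embryonic stem cells. Mll2 is a histone H3 lysine 4 methyltransferase, and the name has been used for both Kmt2d and Kmt2b.

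Genes are called measured here when 1 of their probe sets exceeded a floor on either array. This floor, the median of all values, was a MAS5 signal of 64.7 (6.02 on the log2 scale), and anything lower was set to it. The measured probe set with the highest mean stands for its gene. All ratios are knockdown over control on the log2 scale. The spread quoted for a gene is the scaled median absolute deviation among the 500 genes closest to it in signal. That spread holds real differences as well as noise. As the check of the label, Kmt2d had a signal of 335 on the knockdown array against 736 on the control array (log2 ratio -1.14), and Kmt2b had 852 and 901.5 (log2 ratio -0.08). The arrays had medians of 6.01 and 6.02. For RNA quality, the Gapdh controls read higher at the 3' than at the 5' end by 0.06 (knockdown) and 0.05 (control), and the beta-actin controls by 0.77 and 0.96. All 10 embryonic stem cell markers were measured, with a summed signal of 93530 on the knockdown array against 96913 on the control array. Their ratios went both ways, 5 above 0 and 5 below, from 0.59 for Klf4 (1.51-fold higher) to -0.44 for Pou5f1. Of 10 fibroblast or feeder markers 4 were measured, with summed signals of 652 and 622, while Thy1, Dcn, Lum and Postn were below the floor on both arrays. Primitive endoderm markers were measured in 6 of 8 cases and summed to 2840 and 2667, with Gata4 and Pdgfra below the floor on both arrays. In a bulk sample, fewer cells of a type and less RNA per cell cannot be told apart.

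Most remodeller genes had similar signals on both arrays. Of the 41 genes, 38 were measured, each exceeding the floor on both arrays, and 20 of these had a ratio within 0.2 of 0. None of the 38 reached 2-fold in either direction, a size that 2.45% of all 11805 measured genes reached. At 1.5-fold there were 5 genes, 13.2% of the 38, against 12.1% of all measured genes, so the share was near the background. In the higher direction were 2 of them, Smarca1 and Smarcd3 (7.41% of all genes), and in the lower direction 3, Chd3, Chd4 and Dpf1 (4.71%). Scaling on the bacterial spike-in controls turned this split to 4 higher and 2 lower, and that of all genes at 1.5-fold from 61.1% to 79.1% higher. The median ratio of the 38 genes was -0.03, with 16 above 0 and 22 below, and that of all measured genes was 0.03. Spike-in scaling turned the split to 23 above 0 and 15 below, and the mean over probe sets to 20 and 18. The median size of the ratio, regardless of sign, was 0.17 for remodellers and 0.22 for all genes. These 2 medians are not matched for signal, and the spread depends on signal. Set against the spread at their own level, 65.8% of remodellers lay within it, and 69.8% of all genes did. The share of all genes within 0.2 of 0 was not computed. Small ratios are therefore not shown to be a trait of the remodellers.

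**Figure D1:**
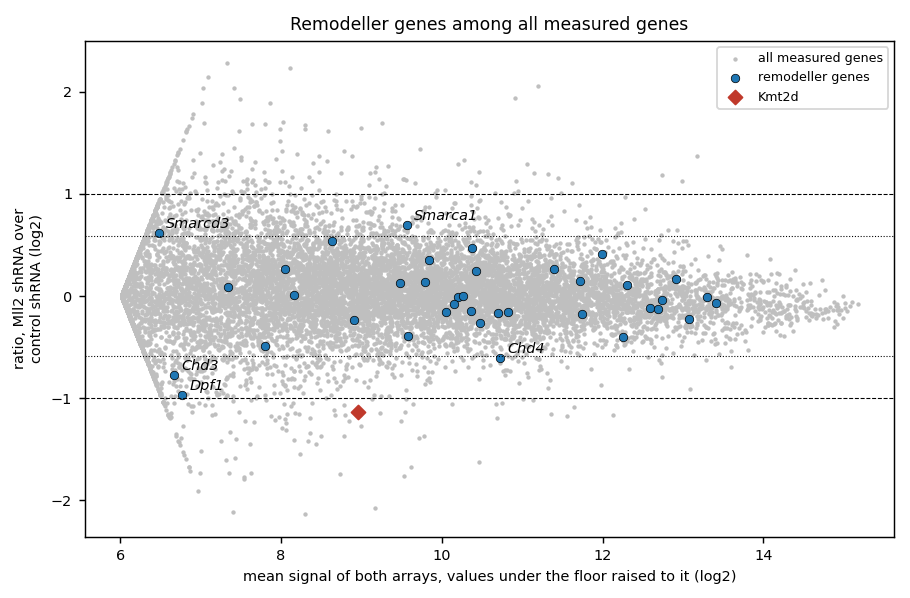
Each point is a gene, with its mean signal on the horizontal axis and its ratio of Mll2 shRNA over control shRNA on the vertical axis, both on the log2 scale. The 38 measured remodellers (blue) lie inside the dashed 2-fold lines, and the 5 named ones lie beyond the dotted 1.5-fold lines. Kmt2d (red) is at -1.14.

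Sequence just around the start sites is shown for the genes that reached 1.5-fold and have an entry in the RefSeq promoter table (assembly GRCm38.p6, 250 bases before to 50 after the start). The table matched 33 of the 41 genes with 38 windows. Chd3 had no entry. Chd4 had 2 listed starts 182 bases apart, of which the upstream one is printed. Capitals mark matches on either strand to a GC box (GGGCGG) or a CCAAT box (CCAAT). The ETS core motif, CCGGAAG, was searched on both strands in the same way. A further search looked for the TATA box, which was spelled TATAAA. The E-box, a site of basic helix-loop-helix factors, was searched as CACGTG. For the zinc-finger factor YY1 the letters searched were ATGGCGGC, again on either strand. None of these other motifs is present in the 4 windows printed here.
Smarca1 (chrX:47892564-47892863, minus strand): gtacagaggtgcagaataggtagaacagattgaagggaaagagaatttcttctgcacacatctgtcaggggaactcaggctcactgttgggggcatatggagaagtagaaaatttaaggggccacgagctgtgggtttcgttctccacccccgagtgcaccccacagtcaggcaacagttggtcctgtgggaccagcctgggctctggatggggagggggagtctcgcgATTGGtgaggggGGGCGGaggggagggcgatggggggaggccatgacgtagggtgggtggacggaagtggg
Smarcd3 (chr5:24601953-24602252, minus strand): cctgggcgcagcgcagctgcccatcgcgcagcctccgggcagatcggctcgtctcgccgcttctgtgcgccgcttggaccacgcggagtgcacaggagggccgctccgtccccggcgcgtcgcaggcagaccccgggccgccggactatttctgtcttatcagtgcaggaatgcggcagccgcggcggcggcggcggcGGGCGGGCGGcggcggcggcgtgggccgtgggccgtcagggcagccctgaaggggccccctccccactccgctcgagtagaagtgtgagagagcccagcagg
Chd4 (chr6:125095731-125096030, plus strand): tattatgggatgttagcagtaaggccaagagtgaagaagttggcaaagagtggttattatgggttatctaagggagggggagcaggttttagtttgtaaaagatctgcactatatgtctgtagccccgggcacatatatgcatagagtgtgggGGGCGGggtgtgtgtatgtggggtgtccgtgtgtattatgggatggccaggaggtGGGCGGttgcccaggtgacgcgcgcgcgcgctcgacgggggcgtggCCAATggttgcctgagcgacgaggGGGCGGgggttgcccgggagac
Dpf1 (chr7:29303755-29304054, plus strand): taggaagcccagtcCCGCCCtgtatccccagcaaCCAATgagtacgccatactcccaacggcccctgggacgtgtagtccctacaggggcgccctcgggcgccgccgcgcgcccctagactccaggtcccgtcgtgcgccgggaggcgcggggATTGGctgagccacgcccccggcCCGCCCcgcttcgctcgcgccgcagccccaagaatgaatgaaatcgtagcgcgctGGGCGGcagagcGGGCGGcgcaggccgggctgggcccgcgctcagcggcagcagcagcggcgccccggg

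These windows differ in their content of the dinucleotide CG, the site of DNA methylation. The Smarca1 window holds 9 and the Chd4 window 17, against 40 for Smarcd3 and 39 for Dpf1. The other Chd4 window, at the downstream start, holds 29. Over all 38 remodeller windows the median was 30, with a range of 1 to 62. The median over 21262 windows of protein-coding genes was 13. A GC box occurred in 33 of the 38 remodeller windows and in 46.2% of protein-coding windows (35.7% of all windows in the table). Some overlapping GC boxes were counted separately, as in Smarcd3. The CCAAT box occurred in 13 of 38 and in 38.2% of protein-coding windows (37.4% of all). Of the other motifs, the ETS core was in 5 remodeller windows (11.6% of protein-coding windows, 8.86% of all), among them overlapping windows of Brd9. The E-box was in 3 (7.84% of protein-coding windows, 7.15% of all). The TATA box was in 1 (12.6% and 13.6%) and YY1 in 1 (3.01% and 2.24%). A match describes letters only and is not a measured binding site.

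The SWI/SNF ATPases are Smarca4 (BRG1) and Smarca2 (BRM). Smarca4 had a signal of 3237 on the knockdown array against 3656 on the control array, a log2 ratio of -0.18 within the spread of 0.22 at its level. Its second probe set read 935 and 1267 (log2 ratio -0.44), in the same direction. Both Smarca2 probe sets were below the floor on both arrays, the brighter at 46.4 and 55.0, and give no ratio.

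The core and scaffold subunits hold the complex together, and all 7 were measured, 5 above 0 and 2 below, with a median of 0.16 in the probe sets used. Smarcd3, a subunit best known from heart development, had a signal of 110 on the knockdown array against 72.0 on the control array. That is 1.53-fold higher (log2 ratio 0.62), but the control value lay just above the floor of 64.7 and the spread at this level was 0.75. Its paralogue Smarcd1 went the other way, from 263 in the control to 187 (log2 ratio -0.49, spread 0.40), with 1 measured probe set. Smarcd2 was at 0.27 and 0.18 in its 2 brighter probe sets, and at -1.20 in the dimmest, where the knockdown array read 78.3 and the control 180. The probe sets of Smarcd2 therefore disagree in direction, and the difference of at least 2-fold is present in 1 of 3.

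Smarcb1 (SNF5), a core subunit, showed the same kind of disagreement. Its brightest probe set read 1576 on the knockdown array against 1765 on the control array (log2 ratio -0.16). Another, with the suffix _x_at, read 1307 and 563, a 2.32-fold higher signal on the knockdown array. This suffix is Affymetrix's mark for probes that can bind other transcripts, and a single Smarcb1 level cannot be read from this pair. The scaffold Smarcc1 had signals of 8199 and 7315 (log2 ratio 0.16, spread 0.19), with other probe sets between -0.24 and 0.14. Its paralogue Smarcc2 was at 0.09, and the HMG-domain subunit Smarce1 at 0.25 with -0.13 in its second probe set. In the probe sets used, the ratios of these 3 genes were within the spread at their levels. The -0.24 of Smarcc1 was larger in size than the spread of 0.19 given for that gene.

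Among the actin-related and BCL7 subunits, Actl6a (BAF53a), which is part of the embryonic stem cell complex, read 5936 on the knockdown array against 6437 on the control array (log2 ratio -0.12, spread 0.20), in a probe set with the suffix _x_at. The other Actl6a probe sets gave -0.10 and 0.29. Its neuronal paralogue Actl6b read 20.3 and 1.8, both below the floor. Bcl7a was at 0.01 and Bcl7b at 0.27, each with 1 measured probe set. Bcl7c was at -0.23 in its brightest probe set but at 0.17, 0.61 and 0.63 in the other 3. The last 2 of these are 1.5-fold higher or more at signals of 83.0 to 172, so the direction for Bcl7c depends on the probe set.

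The canonical BAF subunits gave 1 ratio above 0 and 4 below, with a median of -0.15. Dpf1, a PHD-finger subunit of the neuronal complex, had the largest ratio of all remodellers. Its signal was 78.0 on the knockdown array against 153 on the control array, 1.96-fold lower (log2 ratio -0.97, spread 0.46). Only 22 of the 500 genes nearest in level were as low or lower. The knockdown value was near the floor, the other Dpf1 probe set was below it on both arrays, and quantile normalization took the ratio just past 2-fold. Of 10 neuron markers 8 were measured, with a summed signal of 12647 on the knockdown array against 15564 on the control array. Of these 3 were above 0 and 5 below, from 0.59 for Map2 (1.51-fold higher) to -1.73 for Nefm. Without Nefl, which was at -1.17, the sums were 10633 and 11037. Stmn2 alone made up most of these, at 9365 and 9638, so they say little about the dimmer markers. Nefm read 108 on the knockdown array against 359 on the control array. Snap25 and Dcx were below the floor on both arrays. The part of these markers in the Dpf1 value was not tested. Dpf3 was below the floor in both probe sets, at up to 52.6, and Dpf2, the form expressed in most cells, was at -0.15 and -0.43 in its 2 probe sets.

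The ARID subunits of canonical BAF differed in direction by small amounts in the probe sets used. Arid1a, which binds DNA, had signals of 6304 on the knockdown array against 6903 on the control array (log2 ratio -0.13, spread 0.20). The second Arid1a probe set gave 0.05, so Arid1a had no common direction. Arid1b, its alternative in the complex, had 1038 and 815 (log2 ratio 0.35, spread 0.28). Ss18, the subunit fused to SSX proteins in human synovial sarcoma, was at -0.23 with -0.03 and 0.07 in its other probe sets. Arid2, which takes the place of Arid1a in the PBAF complex, read 4253 and 5604 (log2 ratio -0.40). That ratio was just beyond 2 times the spread of 0.20 at its level. The ratio of Arid2 was -0.37 with quantile normalization or loess and -0.28 with spike-in scaling. Of the 38 measured remodellers 4 lay beyond 2 times their spread, the others being Dpf1, Smarca1 and Chd4. Of all 11805 measured genes, 7.1% did. A second probe set of Arid2 gave -0.42, but the other measured one gave -0.04.

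The remaining PBAF subunits were close to 0 in the probe sets used. Pbrm1, with its row of bromodomains, was at 0.11, the bromodomain protein Brd7 at -0.14 and the PHD-finger protein Phf10 at 0.15. Brd9, a bromodomain subunit of the non-canonical BAF complex, was at 0.14. The second Phf10 probe set read 654 on the knockdown array against 330 on the control array (log2 ratio 0.99). The 2 probe sets of Phf10 share a direction but differ in size by more than the spread of 0.22.

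**Figure D2:**
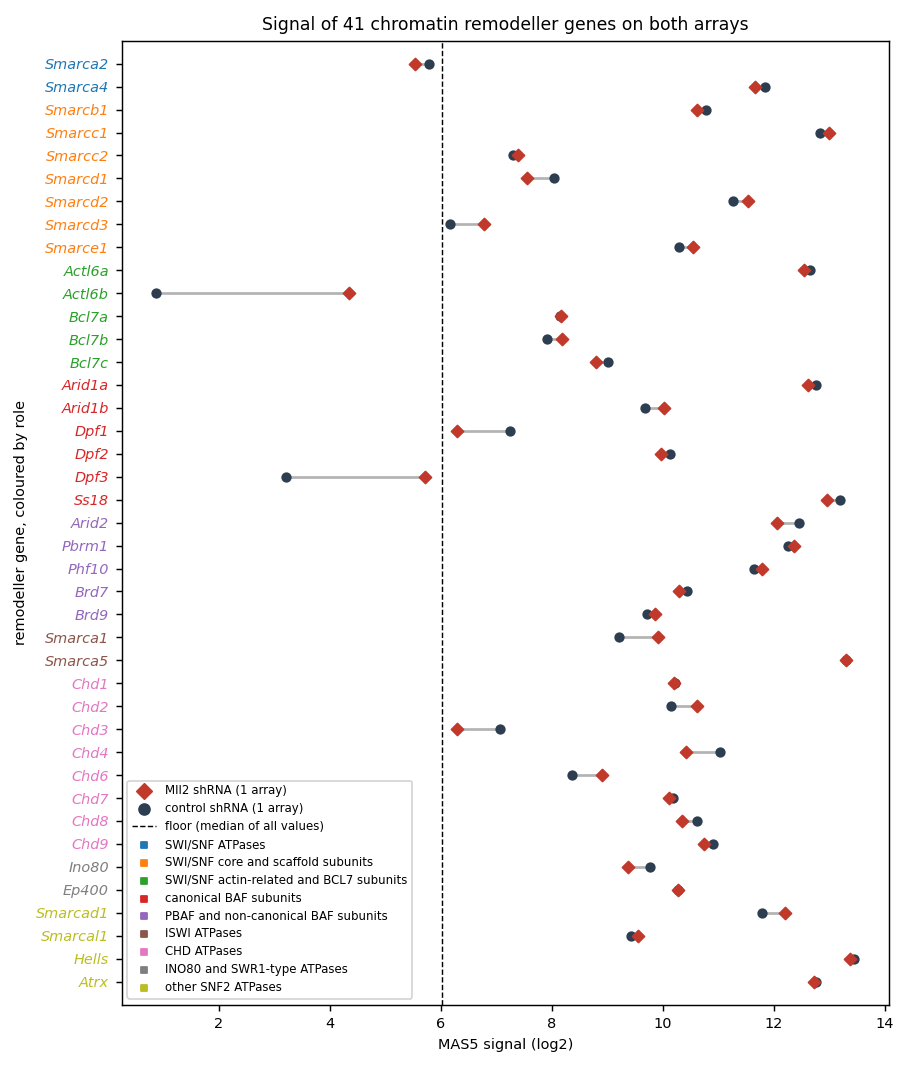
The log2 MAS5 signal of the 41 genes is plotted for the knockdown array (red diamonds) and the control array (dark circles), 1 probe set per gene, coloured by role, with the floor as a dashed line. Smarca2, Actl6b and Dpf3 lie below the floor on both arrays, and Dpf1, Chd3 and Smarcd3 lie just above it. Distances between genes on this axis also reflect their probes and are not differences in transcript number.

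The ISWI ATPases are Smarca1 (SNF2L) and Smarca5 (SNF2H), which are paralogues. Smarca1 had a signal of 961 on the knockdown array against 595 on the control array, 1.62-fold higher (log2 ratio 0.69, spread 0.29). Among the 500 genes nearest in level, 15 were as high or higher. Only 1 probe set measures Smarca1, so no second reading is at hand. Smarca5 had 10068 and 10150 (log2 ratio -0.01), and its other 3 probe sets gave -0.05, 0.09 and 0.31. The ratios of the 2 ISWI genes lay further apart than the spread at the level of either, a difference that was not tested.

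Of the 8 CHD ATPases, 6 were below 0 and 2 above, with a median of -0.12. With spike-in scaling Chd1 (0.10) and Chd7 (0.04) moved above 0, which made it 4 and 4. Chd4 had a signal of 1367 on the knockdown array against 2085 on the control array, 1.53-fold lower (log2 ratio -0.61, spread 0.25), and 10 of the 500 nearest genes were as low or lower. The other 2 Chd4 probe sets gave -0.22 and -0.02, and the mean over the 3 was -0.28 ± 0.30 (SD over probe sets). Chd3, its paralogue in NuRD, read 78.0 and 133, 1.71-fold lower (log2 ratio -0.77, spread 0.53), near the floor and with 1 probe set. Chd4 and Chd3 were thus both lower, and neither has a second probe set of the same size.

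Chd2 and Chd6 were the CHD genes above 0. Chd2 had signals of 1572 on the knockdown array against 1131 on the control array (log2 ratio 0.47, spread 0.26). Its second probe set read 321 and 222 (log2 ratio 0.53), so that the 2 averaged 0.50 ± 0.04 (SD over probe sets). Heterozygous loss of the human gene CHD2 is known from childhood epilepsy. Chd6 had 479 and 330 (log2 ratio 0.54, spread 0.34), and its other probe set was below the floor on both arrays. Both genes passed 1.5-fold with spike-in scaling, at 0.59 and 0.65, and Chd4 did not (-0.49). Chd1, which is needed for the open chromatin of mouse embryonic stem cells, read 1176 and 1187 (log2 ratio -0.01, spread 0.26). Its other 3 probe sets ran from -0.55 to 0.40 and give no common direction.

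Chd7, mutated in human CHARGE syndrome, had signals of 1104 on the knockdown array against 1167 on the control array (log2 ratio -0.08), with -0.15 in its second probe set. Chd8, a gene linked to autism in humans, had 1300 and 1565 (log2 ratio -0.27, spread 0.27), with 0.16 in its second probe set. A further Chd8 probe set, above the floor in the control only, was lower by at least 1.25-fold. Chd9 had 1722 and 1915 (log2 ratio -0.15), and its second probe set gave 0.45. For Chd8 and Chd9 the probe sets therefore disagree in direction, while both Chd7 readings lie near 0.

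Ino80, the ATPase of the complex named after it, is known to help keep pluripotency genes accessible in embryonic stem cells. It had a signal of 665 on the knockdown array against 873 on the control array (log2 ratio -0.39, spread 0.29), and 37 of the 500 nearest genes were as low or lower. The second Ino80 probe set read 121 and 157 (log2 ratio -0.37), so the 2 readings were nearly the same. Ep400, the ATPase of the TIP60 acetyltransferase complex, read 1231 and 1235 (log2 ratio 0.00), with its other 4 measured probe sets between -0.39 and 0.18. Ino80 was lower on both of its probe sets, and Ep400 had no common direction.

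The last 4 genes encode SNF2-type ATPases with roles in heterochromatin or DNA replication. Smarcad1, which helps restore silent chromatin after replication, had signals of 4709 on the knockdown array against 3529 on the control array (log2 ratio 0.42, spread 0.22), but its second probe set gave -0.11. Hells (LSH), needed for normal DNA methylation at repeats, read 10657 and 11203 (log2 ratio -0.07, spread 0.18), with -0.32 and -0.10 in its other probe sets. Smarcal1, an annealing helicase of stalled replication forks, read 749 and 684 (log2 ratio 0.13), with 0.26 in its second probe set. Atrx, which deposits histone H3.3 together with Daxx, read 6771 and 6952 (log2 ratio -0.04, spread 0.20). The other 6 Atrx probe sets ran from 0.37 down to -0.30, apart from 1 that was above the floor in the control only and lower by at least 1.62-fold. None of these 4 genes reached 1.5-fold in the probe set used.

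Agreement between probe sets of a gene was then described, since it is the only second reading available. Of 109 remodeller probe sets, 89 were measured, and 87 exceeded the floor on both arrays. At 1.5-fold there were 11, 6 higher and 5 lower, in 10 genes. This is 12.4% of the 89, and 12.4% of all 24071 measured probe sets reached 1.5-fold (7.18% higher, 5.24% lower). At 2-fold there were 2, those of Smarcb1 and Smarcd2 given above, or 2.25% against 2.21% of all measured probe sets. Both shares were near the background.

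Of the 27 genes with at least 2 measured probe sets, 17 had ratios of both signs and 10 had the same sign throughout. The higher ones of these 10 were Phf10, Chd2 and Smarcal1. The 7 lower ones were Smarca4, Dpf2, Arid2, Chd4, Chd7, Ino80 and Hells. The matching shares over all genes were not computed, so these counts cannot be called particular to remodellers. The ratios of the 2 brightest probe sets of a gene differed with an SD of 0.41 over the 27 genes, and with an SD of 0.37 over 4713 genes of the whole array. An SD of this size is as large as most of the ratios given here. Probe sets of 1 gene come from the same arrays and may overlap in sequence, and they do not stand in for separate cultures. Of the 5 genes at 1.5-fold, 4 had 1 measured probe set, and Chd4 was the exception.

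**Figure D3:**
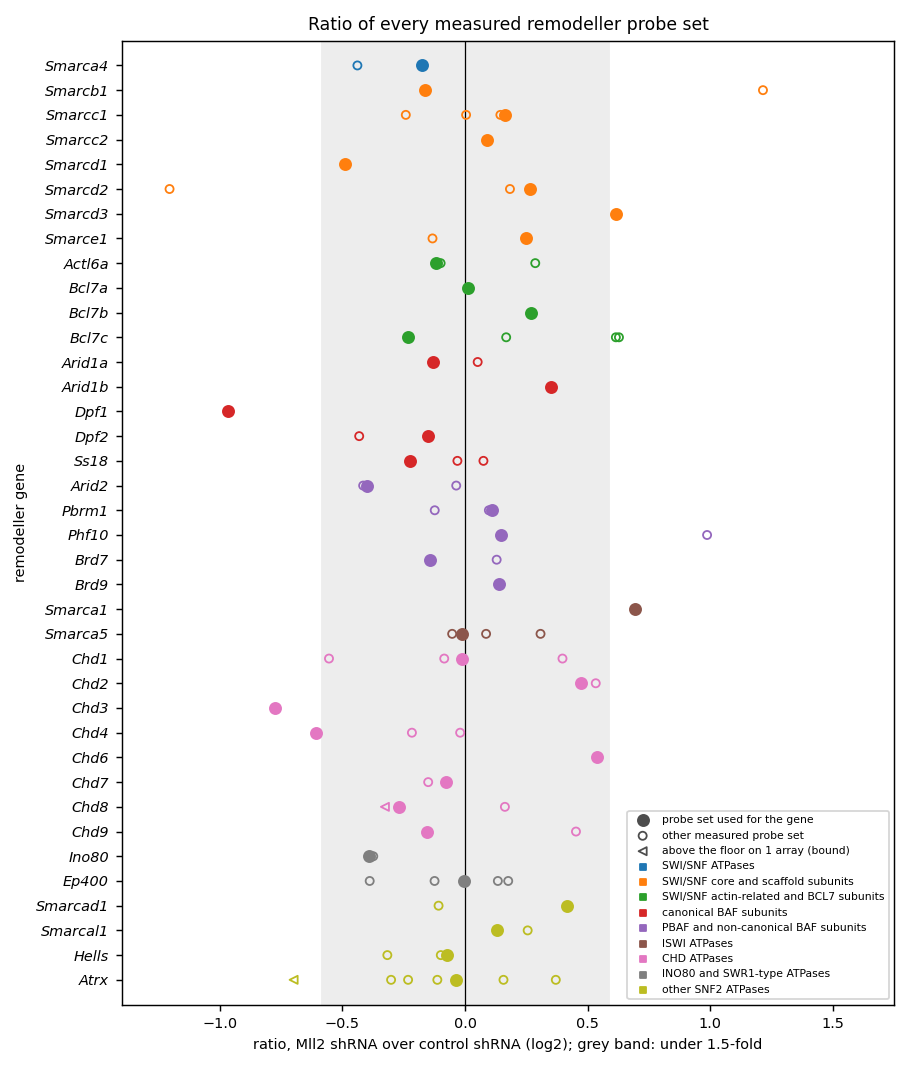
Every measured probe set of the 38 genes is placed by its ratio on the log2 scale, with the probe set used for the gene filled, the others open, and triangles for ratios that are lower bounds in size. The grey band covers ratios under 1.5-fold. The far points of Smarcb1 (1.21) and Smarcd2 (-1.20) stand against other probe sets of the same genes inside the band.

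Subunits of the same complexes that are not themselves among the 41 genes were taken from 6 lists of 71 genes in all, of which 69 were measured. At 1.5-fold there were 5 of these 69 (7.25%, against 12.1% of all measured genes), 2 higher and 3 lower, and none reached 2-fold. Their median ratio was 0.00.

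Partners of the ISWI ATPases held 3 of the 5. Baz1a (ACF1), the partner of Smarca5 in the ACF and CHRAC complexes, had a signal of 1642 on the knockdown array against 2766 on the control array, 1.69-fold lower (log2 ratio -0.75, spread 0.30). Its second probe set gave -0.99. Chrac1, a histone-fold subunit of CHRAC, read 2346 and 1242, 1.89-fold higher (log2 ratio 0.92, spread 0.26), in a probe set with the suffix _x_at. Its second probe set, without a suffix, gave 0.24, below 1.5-fold. These 2 subunits of 1 complex had ratios of opposite sign, and each kept its sign in both of its probe sets. Cecr2, a bromodomain partner of ISWI, was at -0.64 in 1 probe set and at 0.61 in the other. The other 6 ISWI partners lay between -0.06 and 0.20 in the probe sets used. Their other probe sets ran from -0.84 for Baz2a to 0.61 for Baz2b, and those of Rsf1 lay between 0.34 and 0.55. With the mean over probe sets, Rsf1 (0.30), Baz1b (0.14), Baz2b (0.17) and Pole3 (-0.02) changed sign.

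Elsewhere, Bcl11b, a zinc-finger protein that joins BAF in some lineages, was at -0.73 near the floor, while a second probe set, under the floor in the control only, was higher by at least 1.52-fold. Chd5, a CHD family member best known from the nervous system, was higher by at least 1.87-fold, with a signal of 121 on the knockdown array and a control value of 60.4 under the floor. The 12 NuRD partners, the setting in which Chd4 acts, had a median of 0.05. Of these 8 were above 0 and 4 below, and the largest in the probe sets used was Mbd2, a methyl-CpG-binding protein, at 0.37. Mta3, another NuRD subunit, was at 0.34 in the probe set used, but another read 878 on the knockdown array against 434 on the control array (2.02-fold higher), and the dimmest gave -0.20. Of the Gatad2a probe sets, 1 near the floor was at 0.59 and the one used at 0.02. These probe sets were picked after their values were seen. Of 12 measured INO80 subunits, 9 were below 0 and 3 above, with a median of -0.13. The split was 7 and 5 with spike-in scaling, and 10 and 2 with quantile normalization, loess or without suffixed probe sets. Of all 11805 measured genes, 5493 were below 0. The largest ratio among the INO80 subunits was that of Tfpt at 0.44, in a probe set with the suffix _s_at. The 16 measured SRCAP and TIP60 subunits had a median of 0.03, with Mrgbp at -0.45.

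**Figure D4:**
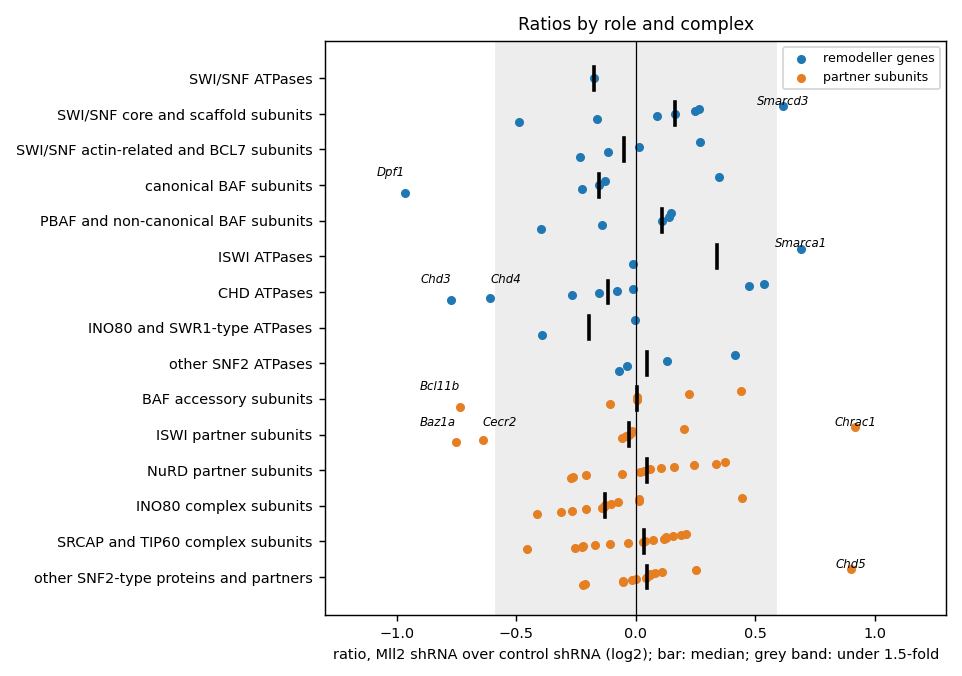
Each point is a measured gene placed by its ratio on the log2 scale, remodellers in blue by role and partner subunits in orange by complex, with a bar at the median of each list. The grey band covers ratios under 1.5-fold, and the named genes lie outside it. The NuRD, INO80, SRCAP and TIP60 partner lists lie inside the band in full.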

How the data were processed

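The deposited table holds log2 values for 45101 probe sets on 2 arrays. The authors made these log2 values with MAS5, per the submitters' processing notes, which record no version or later step here. MAS5 sets perfect-match against mismatch probes. Turned back to linear signals, both arrays came to 500.0 in the 2% trimmed mean.

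Control probe sets, 64 in number, were left out. The platform annotation gave 1 gene symbol for 34945 probe sets, several for 932 and none for 9160, and 34741 symbols were updated through the Entrez number to RefSeq (GRCm38.p6). One probe set that names Ino80 together with Rpl35a and other genes was left out by the rule. Values under the floor, the 50th percentile of all values, were raised to it. A ratio with 1 array under the floor is a lower bound in size and is written as "at least". The spread is 1.4826 times the median absolute deviation over the 500 genes nearest in level. No fold, interval or p-value was computed between groups beyond these ratios. The array number limits the precision.

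The genes, lists, thresholds and alternatives were chosen with earlier results of these data known. Every remodeller gene is named. Of each partner list the genes at 1.5-fold are named, or otherwise the largest ratio. Partners beyond that are named for their other probe sets or for other settings. Markers, and Daxx, are named for reference. The steps were tested on simulated data, with differences of 2-fold or more planted in genes well above the floor. The simulated scatter was smaller than the spread on these arrays. That test does not show how the steps perform near 1.5-fold or near the floor. Alternatives were 4 other scalings, 2 other floors, no floor, a pseudocount, the mean over probe sets, and probe sets without a suffix (_s_at, _x_at or _a_at) alone. Python 3.11.15 with numpy 2.4.6, pandas 2.3.3, scipy 1.17.1 and matplotlib 3.10.9, and limma 3.58.1 under R 4.3.3 (loess), did the computing.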

Additional observations from a re-analysis of the deposited data

How the results depend on the processing

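The count of remodeller genes at 1.5-fold, 5 as reported, was 5 after median centring, quantile normalization, loess and without a floor, and they were the same 5 genes. It was 2 (Chd4 and Smarca1) with a floor at the 70th percentile, 3 with a pseudocount equal to the floor and 3 without the probe sets with suffixes. The share of all measured genes at 1.5-fold was then 6.88%, 8.66% and 12.3%, against 12.1% as reported. The count was 4 with the mean over probe sets, and 6 with spike-in scaling or the floor at the 30th percentile. In these settings the share of all genes was 10.4%, 14.8% and 20.4%. Without a floor, where the count stayed at 5, it was 17.1%. The 70th percentile leaves 34 remodeller genes measured. Leaving out the suffixes removes the only Smarca1 probe set and takes Chd4 to -0.22. The count at 2-fold was 0 except for 1 after quantile normalization (Dpf1) and 1 with the floor at the 30th percentile (Dpf3). Remodeller probe sets at 1.5-fold numbered 4 with a floor at the 70th percentile, 6 with the pseudocount and 8 without suffixes, against 11. They numbered 13 with spike-in scaling and 15 with the floor at the 30th percentile. The share of all probe sets in these settings is not given here. Against 5 as reported, partner genes at 1.5-fold numbered 3 with a floor at the 70th percentile and 2 with the pseudocount. They numbered 2 with the mean over probe sets, 4 with spike-in scaling and 6 without suffixed probe sets.

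Spike-in scaling shifted the median of all genes to 0.14 and that of the remodellers to 0.0914. The remodeller median lay 0.05 below that of all genes both as reported and with this scaling. It lay 0.01 below with the mean over probe sets, where it was itself above 0, at 0.02. With the mean over probe sets the direction turned for 6 remodellers, Smarcb1 (0.53), Smarcd2 (-0.25), Bcl7c (0.29), Chd9 (0.15), Smarca5 (0.08) and Actl6a (0.02). Spike-in scaling turned 7 that had lain between -0.12 and 0, Actl6a, Smarca5, Chd1, Chd7, Ep400, Hells and Atrx. Quantile normalization and loess turned 3 remodellers each, and median centring 1. Of the 69 measured partners, 15 turned with spike-in scaling, 12 with the mean over probe sets and 7 or fewer in each other setting. Without suffixed probe sets Chrac1 fell under 1.5-fold, Baz2a (-0.84) and Mta3 (1.02) passed it, and Bcl11b turned from -0.73 to at least 1.52-fold higher. No paired analysis was possible because each group has 1 array, and no array could be left out. Ratios near the floor are the least certain.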

Other observations

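Some remodeller probe sets lay far apart on the arrays while under the floor on both, where values have no order. In the Mll2 shRNA array Actl6b, the neuronal actin-related subunit, read 20.3 against 1.8 in the control, the 2 probe sets of Dpf3 read 52.6 against 9.2 and 36.8 against 27.6, and 1 probe set of Chd6 read 38.6 against 3.9. A dim Chd8 probe set read 43.9 against 3.8. The dim probe set of Smarcd1, a BAF scaffold subunit, read 0.44 against 4.24 on the log2 scale. These probe sets were picked after the values were seen. The probe set that names Ino80 together with Rpl35a had log2 values of 14.58 (Mll2 shRNA) and 14.71 (control shRNA). It was not used for Ino80.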
